A study of Mus musculus with 6 samples.

Results

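ATP-binding cassette (ABC) transporter genes other than Abca3 were compared between embryonic mouse lungs with floxed forkhead (Foxp) genes recombined in the endoderm and their controls. The members were all features of the deposited table whose single annotated symbol names a gene of subfamilies a to g (1 feature per gene, chosen by its mean signal across arrays). This gave 47 of the 19938 genes tested, of which 15 belong to subfamily a, 9 to b, 10 to c, 3 to d, 1 to e, 3 to f and 6 to g.

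Whole lungs were taken from embryos at stage E14.5, and RNA was read on 6 single-colour Affymetrix arrays, 3 from mutants and 3 from controls. Mutants carried Shh-Cre with floxed alleles. Their label lists Foxp1flox/flox, repeats it, and then lists Foxp4flox/flox, whereas the series title names Foxp1/2/4. Controls carried Shh-Cre, so both groups have the recombinase, and both were a mix of C57BL/6 and 129X1. Shh-Cre, a recombinase expressed from the Shh locus, acts in the endoderm that forms the lung epithelium. The mesenchyme, vessels and blood cells in a whole lung keep the floxed genes, so a change in endoderm is diluted and a change elsewhere is not a direct deletion. In such bulk RNA, fewer cells of a type and less RNA per cell cannot be told apart.

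ABC proteins bind and hydrolyse ATP to move a substrate across a membrane. Subfamily a and part of g move sterols and phospholipids. Subfamilies b and c hold drug, bile salt, peptide and organic anion pumps and 2 potassium channel subunits, and d holds peroxisomal and lysosomal transporters. Proteins of subfamilies e and f have the ATP-binding domains without membrane spans and work on ribosomes. In the lung the family is best known for Abca3, which loads surfactant lipid into lamellar bodies and is left out here.

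Array medians lay between 6.70 and 6.79 on the log2 scale. Pairs of arrays correlated at 0.994 to 0.996 within mutants, 0.998 to 0.998 within controls and 0.988 to 0.991 across the groups. Of the targeted genes, Foxp2 read 9.59, 9.55 and 9.60 in mutants 1 to 3, against 10.52, 10.54 and 10.53 in controls 1 to 3. Foxp4 read 8.75, 8.56 and 8.96 in mutants, against 9.43, 9.37 and 9.40 in controls, and Foxp1 read 9.45, 9.25 and 9.55 in mutants, against 9.68, 9.73 and 9.75 in controls. The limma adjusted p was 4.75e-05 for Foxp2, 0.00591 for Foxp4 and 0.0661 for Foxp1, so Foxp1 did not pass. Embryo sex was read from the Y-linked genes on each array, which gave 4 female and 2 male embryos. Y-linked genes averaged 4.47 to 4.60 on the female arrays. Genes that are silent in 1 sex (Y-linked genes in females, Xist in males) read up to 5.77, the Xist value of mutant 3. Of the 47 ABC genes, 11 stayed under that value on all 6 arrays and 26 averaged above the array median in controls. A low reading cannot fall far, so a dim gene that did not pass is not shown to be unchanged.

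Most ABC transporter genes, like most genes tested, differed little between the genotypes, and the members that passed were mostly higher in the mutants. Of the 47 members, 8 were higher in mutant lungs at a limma adjusted p under 0.05 (17.0%), against 3.84% of all genes tested. Of these 8, 5 are adjacent subfamily a genes at 1 place on chromosome 11, so the share rests largely on that place. One member, Abca13, was lower (2.13% of the members), against 3.83% of all genes tested. In either direction 7.66% of all genes passed. The median log2 difference, mutant minus control, was 0.02 over the members and -0.01 over all genes. No member changed as much as 2-fold, and the largest change was that of Abca9, at 1.55-fold. Of the 47 members 28 differed by less than 0.1 log2 units, as did 11995 of the 19938 genes tested, a similar share. All 3 mutant values lay above all 3 control values for 11 members, against 13.4% of all genes, and below them for 6 members, against 12.6% of all genes. Centring the arrays on their medians ended 3 of the 8 upward calls, with adjusted p of 0.0622 for Abca9, 0.0578 for Abcc4 and 0.0623 for Abcg5.

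**Figure D1:**
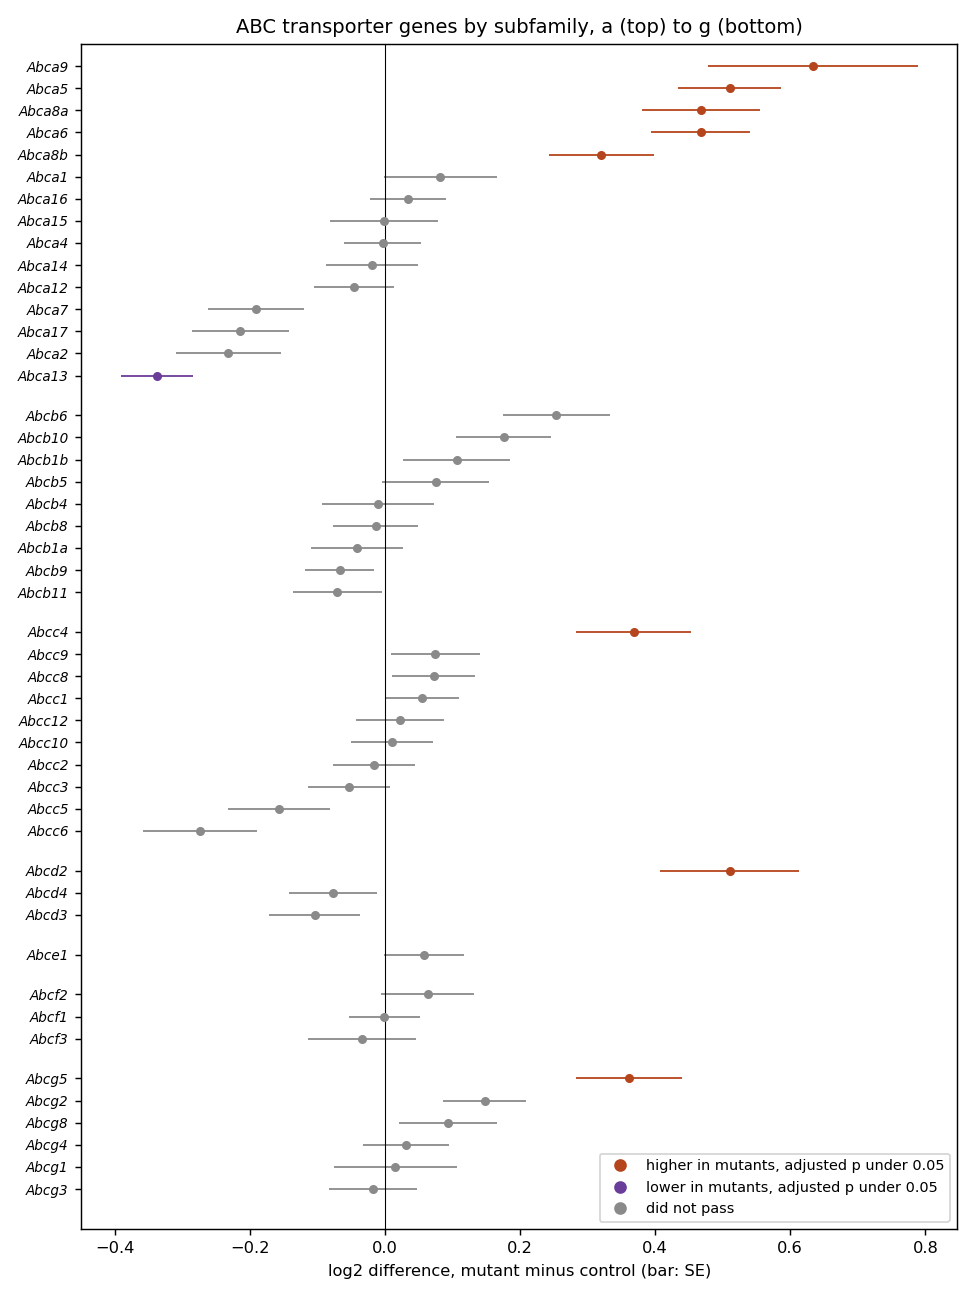
Log2 difference, mutant minus control, with its standard error (SE, n = 3 per group) for each of the 47 ABC transporter genes, one row per gene, grouped by subfamily from a at the top to g at the bottom. The 8 genes that passed as higher include 5 of subfamily a, and the 1 that passed as lower is Abca13.

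Markers of the cell types in a lung differed between the groups as follows, and their part in the ABC results was not tested. Of 8 epithelial markers 5 fell and 0 rose, with a summed linear level of 6739 to 8171 in mutants and 10690 to 11030 in controls. All 5 smooth muscle markers fell (3557 to 4335 in mutants, 8525 to 8858 in controls). Of 7 macrophage markers 2 rose and 0 fell (1828 to 2282 in mutants, 1636 to 1919 in controls). For 5 of the 7 all mutant values lay above all control values, against 13.4% of all genes. C1qb (0.37) and Lyz2 (-0.33) overlapped between the groups. Of 4 pericyte markers 1 rose, Pdgfrb (0.36). The other 3 pericyte markers differed by -0.06 to 0.02 and overlapped between the groups, so the summed level (3051 to 3360 in mutants, 2663 to 2764 in controls) follows Pdgfrb. The 3 measured red cell markers of 6 listed, Alas2, Epb42 and Slc4a1, all fell (832 to 912 in mutants, 1436 to 2250 in controls). None of the 6 endothelial markers passed (8003 to 9121 in mutants, 8966 to 9179 in controls). Heart muscle markers, 0 of 6 of which passed, stood out in 1 array (1032 to 6681 in mutants, 2765 to 2953 in controls). Their median deviation from the control means was 1.40 in mutant 1, -0.39 in mutant 2 and -0.40 in mutant 3. Actc1 was furthest below the controls in mutants 2 and 3 (8.70 and 8.61). It read 11.37 in mutant 1 and 10.98, 11.08 and 10.88 in controls. Without mutant 1, 6 ABC members were higher and 1 lower. Of 4 mesothelial markers 1 rose (1410 to 1951 in mutants, 1501 to 1756 in controls), of the 5 measured liver markers 1 fell (293 to 320 in mutants, 303 to 364 in controls) while Alb, Ttr and Cyp3a11 lay in the range of silent genes, and of the 2 measured neural crest markers 0 passed (159 to 187 in mutants, 171 to 186 in controls).

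Most of the calls lay in subfamily a. Abca5, Abca6, Abca8a, Abca8b and Abca9, which encode full-length lipid transporters and are neighbours on chromosome 11 with no other protein-coding gene between them, were all higher in mutant lungs. Their differences ran between 0.32 and 0.63 log2 units. For each of the 5 genes the mutant and control values did not overlap, which is likely for genes picked by the threshold. All mutant values lay above all control values for 13.4% of all genes.

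Abca9, whose human counterpart responds to cholesterol in macrophages, read 8.16, 8.56 and 8.77 in mutants 1 to 3, against 7.98, 7.95 and 7.65 in controls 1 to 3. Mutant 1 was the closest to the controls and control 3 the lowest array. Abca9 was 1.55-fold higher in mutants (0.63 ± 0.16, SE, n = 3 per group; limma adjusted p = 0.0474). This call is near the threshold and ended without mutant 2 (adjusted p = 0.094), mutant 3 (0.114), control 1 (0.105), control 2 (0.113) or control 3 (0.177). It also ended when all features were tested (adjusted p = 0.0514) or with embryo sex as a covariate (0.0813).

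Abca5, a transporter of lysosomes and late endosomes, read 8.0, 8.20 and 8.25 in mutants, against 7.64, 7.68 and 7.59 in controls. The gap between the groups was wider than the spread within either. Abca5 was 1.42-fold higher (0.51 ± 0.08, limma adjusted p = 0.0059) and passed with each array left out in turn (adjusted p up to 0.0377).

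Abca6 read 6.97, 6.77 and 6.85 in mutants, against 6.35, 6.49 and 6.35 in controls. Here mutant 1 was the highest array, unlike in Abca9 and Abca5. The rise was 1.38-fold (0.47 ± 0.07, limma adjusted p = 0.00714) and also passed with each array left out (adjusted p up to 0.0434).

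Mice carry a pair of genes, Abca8a and Abca8b, in place of the single human ABCA8, which is known to move cholesterol and taurocholate out of cells. Abca8a read 7.28, 7.29 and 7.40 in mutants, against 6.67, 6.95 and 6.95 in controls, and control 1 was lower than the other two. The difference was 0.47 ± 0.09 (limma adjusted p = 0.016), and its call ended without mutant 3 (adjusted p = 0.056). Abca8b read 6.03, 5.83 and 6.02 in mutants, against 5.53, 5.68 and 5.70 in controls. Its control values, but not its mutant values, all lay in the range of silent genes, and the difference was 0.32 ± 0.08 (limma adjusted p = 0.0455). That call ended without mutant 1 (adjusted p = 0.103), mutant 3 (0.126), control 1 (0.162), control 2 (0.122) or control 3 (0.104). The paralogs are alike in sequence, and whether the probes of one also read the other was not tested. Nor was this tested for Abca5, Abca6 and Abca9.

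**Figure D2:**
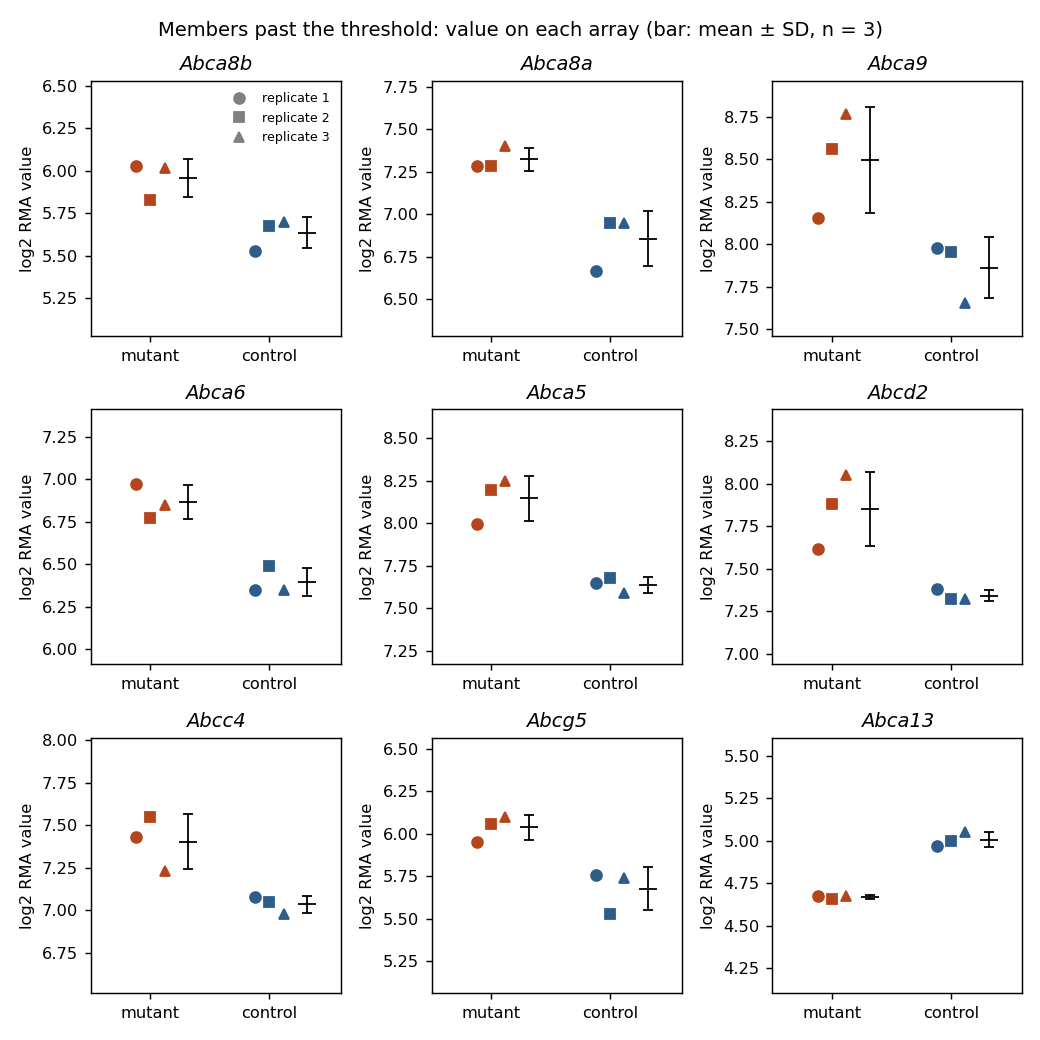
Log2 RMA values of the 9 ABC transporter genes that passed the threshold, 1 panel per gene and 1 point per array, mutants left and controls right, with the mean ± SD (n = 3) beside each group and the same height of scale in every panel. The groups do not overlap in any panel, which is likely for genes picked by the threshold. Abca13 is the 1 gene with the mutants below the controls.

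The genes beside these 5 give the extent of the pattern. On the side of Abca8b, the 3 nearest measured protein-coding genes did not pass, at -0.15 ± 0.09 for 1700012B07Rik, -0.08 ± 0.08 for Fam20a and 0.02 ± 0.06 for Prkar1a, with limma adjusted p from 0.453 to 0.913. On the side of Abca5, Map2k6, which encodes a kinase upstream of p38, was higher as well. It read 8.89, 9.14 and 8.99 in mutants, against 8.73, 8.67 and 8.71 in controls, a difference of 0.30 ± 0.07 (limma adjusted p = 0.0444). With single arrays left out its adjusted p reached 0.166, without control 2, and 1 of 6 such fits kept the call. The call also ended with arrays centred on their medians (adjusted p = 0.0999) or with embryo sex as a covariate. The potassium channel genes Kcnj16 (-0.08 ± 0.06, adjusted p = 0.561) and Kcnj2 (0.07 ± 0.09, adjusted p = 0.756) came next and did not pass. This stretch was singled out after its values were seen.

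**Figure D3:**
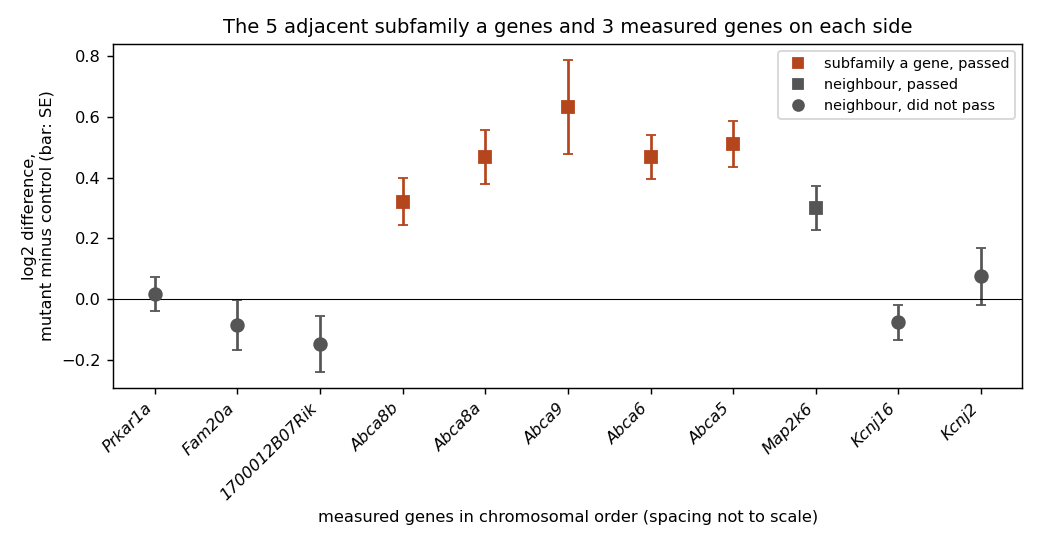
Log2 difference, mutant minus control, with its SE (n = 3 per group) for the 5 adjacent subfamily a genes and the 3 nearest measured protein-coding genes on each side, in chromosomal order and with spacing not to scale. The 5 genes and Map2k6 lie between 0.30 and 0.63, and the other 5 neighbours between -0.15 and 0.07.

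The promoter stretches of 4 of these 5 genes are shown because the genes rose together and the mutated genes encode forkhead factors, whose binding sites share a short core. RefSeq windows were found for 37 of the 47 members and for 7 of the 9 that passed. The 4 stretches are the 250 bases before each start on assembly GRCm38.p6, all on the minus strand, written 5′ to 3′ in lower case, with any match to the core in capitals. They lie at chr11:109995846-109996095 for Abca8b, chr11:110095938-110096187 for Abca8a, chr11:110168154-110168403 for Abca9 and chr11:110337717-110337966 for Abca5.
Abca8b: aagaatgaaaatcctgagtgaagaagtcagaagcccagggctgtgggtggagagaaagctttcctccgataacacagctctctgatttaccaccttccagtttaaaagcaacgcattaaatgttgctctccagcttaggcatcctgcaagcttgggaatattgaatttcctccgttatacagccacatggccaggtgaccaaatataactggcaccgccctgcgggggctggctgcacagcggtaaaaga
Abca8a: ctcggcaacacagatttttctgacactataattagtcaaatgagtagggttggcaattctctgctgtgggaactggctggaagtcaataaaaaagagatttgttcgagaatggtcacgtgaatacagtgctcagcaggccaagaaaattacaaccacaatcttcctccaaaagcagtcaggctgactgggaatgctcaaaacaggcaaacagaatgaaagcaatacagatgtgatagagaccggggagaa
Abca9: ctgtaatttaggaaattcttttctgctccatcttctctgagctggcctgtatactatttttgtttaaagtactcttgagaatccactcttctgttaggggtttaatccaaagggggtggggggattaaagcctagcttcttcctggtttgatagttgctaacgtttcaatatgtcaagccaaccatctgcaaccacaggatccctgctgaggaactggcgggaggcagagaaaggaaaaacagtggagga
Abca5: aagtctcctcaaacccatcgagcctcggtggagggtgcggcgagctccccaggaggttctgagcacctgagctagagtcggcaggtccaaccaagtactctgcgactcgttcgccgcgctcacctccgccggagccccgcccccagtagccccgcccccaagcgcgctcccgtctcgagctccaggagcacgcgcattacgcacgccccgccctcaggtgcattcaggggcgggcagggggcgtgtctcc

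The core was searched on both strands as TGTTTAC (in 3.17% of all windows), TGTTTAT (4.16%), TATTTAC (2.73%) and TATTTAT (5.17%), and matches may overlap along a strand. None of these 4 stretches holds any of them, which says only that these letters are not in these windows. At least 1 of the 4 spellings occurs in 13.6% of all 32851 promoter windows of that length, and in the windows of 4 of the 37 members. Of these 4, Abcg5 and Abcg8 share 1 match, which lies between their starts. Abca5 has a GC-rich stretch (69.2% G or C), while those of Abca8b (48.8%), Abca9 (44.4%) and Abca8a (43.2%) hold less.

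None of the other 10 members of subfamily a passed as higher. Abca13, which encodes a very large transporter, read 4.67, 4.66 and 4.68 in mutants, against 4.97, 5.0 and 5.05 in controls. All 6 values are in the range of silent genes, and the mutants differ from each other by less than the controls do. The difference was -0.34 ± 0.05 (limma adjusted p = 0.00733), passed with each array left out (adjusted p up to 0.0475), and says little about the amount of transcript at such a reading. Abca2, a lysosomal lipid transporter best known from myelin-forming cells, had the largest difference of the subfamily that did not pass, with 7.36, 7.20 and 7.49 in mutants against 7.60, 7.59 and 7.56 in controls (-0.23 ± 0.08, adjusted p = 0.134). Abca7, a phospholipid exporter, was at -0.19 (adjusted p = 0.179) and Abca17, a rodent gene next to Abca3, at -0.21 (adjusted p = 0.133), each with its mutant values below its control values. Abca3 itself, which is no member, stood at -0.69 ± 0.06 beside it (adjusted p = 0.000289).

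Abca1, which passes cholesterol to apolipoprotein A-I, averaged 9.23 ± 0.16 in mutants and 9.15 ± 0.04 in controls (SD, n = 3 each). Its difference of 0.08 had a 95% interval of -0.11 to 0.28. The retinal gene Abca4 (-0.00), the skin lipid gene Abca12 (-0.05) and the adjacent trio Abca14 (-0.02), Abca15 (-0.00) and Abca16 (0.03) on chromosome 7 had adjusted p from 0.765 to 0.994. That trio and the adjacent Abcb1a, Abcb1b and Abcb4 on chromosome 5 held 0 genes that passed. Of the 13 members listed as subfamily a lipid transporters beside the sterol exporters Abca1 and Abca7, 5 rose, 1 fell and 7 missed the threshold; their median was -0.00.

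In the sterol exporters of subfamily g, Abcg5 was higher and its partner gene Abcg8 did not pass. The 2 proteins form 1 pump that secretes sterols in liver and gut, and the genes lie head to head on chromosome 17. Abcg5 read 5.95, 6.06 and 6.10 in mutants, against 5.76, 5.53 and 5.74 in controls, 1.28-fold higher (0.36 ± 0.08, limma adjusted p = 0.03). Abcg8 read 5.99, 5.78 and 5.86 in mutants, against 5.86, 5.71 and 5.78 in controls, and the groups overlapped (0.09 ± 0.07, adjusted p = 0.571). Both genes read close to the level of silent genes. The control values of Abcg5, but not its mutant values, all lay in the range of silent genes. The Abcg5 call ended without mutant 2 (adjusted p = 0.0541), mutant 3 (0.0908), control 1 (0.0605), control 2 (0.0983) or control 3 (0.0769). The Abcg5 minus Abcg8 value on each array differed between mutants and controls by 0.27, with an exact two-sided permutation p of 0.1 (n = 3 per group, adjusted p = 0.1 over 2 gene pairs), the smallest that 3 against 3 arrays can give. This pair, and that of Abcd2 and Abcd3, were chosen after their values were seen.

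The 109 bases between their starts, chr17:84683012-84683120 of GRCm38.p6 on the plus strand, are shown since both genes start from this stretch in opposite directions. They hold 1 match to the forkhead core, in capitals, which counts in the windows of both genes. At least 1 match occurs in 13.6% of all windows of 250 bases, which are longer than this stretch.
Abcg5 and Abcg8: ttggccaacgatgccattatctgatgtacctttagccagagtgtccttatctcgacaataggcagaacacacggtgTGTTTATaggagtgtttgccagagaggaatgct

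The remaining subfamily g genes did not pass. Abcg2, a drug and urate exporter, averaged 8.77 ± 0.07 in mutants and 8.62 ± 0.05 in controls (SD, n = 3 each), and its mutant values lay above its control values (0.15, adjusted p = 0.229). Abcg1 (0.02), which loads cholesterol onto lipoproteins, Abcg4 (0.03), a sterol exporter of the brain, and the rodent gene Abcg3 (-0.02) had adjusted p from 0.861 to 0.959. Of the 7 members listed for sterol and phospholipid export across subfamilies, Abcg5 rose, 0 fell and 6 did not pass, and the median was 0.03.

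Among the peroxisomal and lysosomal transporters of subfamily d, Abcd2 was higher. It brings very long-chain fatty acids into peroxisomes. Abcd2 read 7.62, 7.88 and 8.05 in mutants, against 7.38, 7.32 and 7.32 in controls. The mutants were spread more widely than the controls, with mutant 1 the lowest of them, and the groups did not overlap. The rise was 1.42-fold (0.51 ± 0.10, limma adjusted p = 0.0229), and the call ended without control 1 (adjusted p = 0.0758), control 2 (0.0925) or control 3 (0.0962).

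Abcd3, a major peroxisomal membrane protein, averaged 9.80 ± 0.10 in mutants and 9.91 ± 0.04 in controls (SD, n = 3 each) and did not pass (-0.10, adjusted p = 0.476). The Abcd2 minus Abcd3 value on each array was higher in mutants by 0.61, with no overlap between the groups (exact two-sided permutation p = 0.1, the smallest possible with n = 3 per group). Abcd4, which takes part in releasing cobalamin from lysosomes, was at -0.08 (adjusted p = 0.612). Of the 2 peroxisomal members 1 rose, and of the 2 lysosomal members, Abcd4 and Abcb9, 0 passed.

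In subfamily c, which exports organic anions and conjugates, Abcc4 was higher. Abcc4 pumps cyclic nucleotides and prostanoids out of cells. It read 7.43, 7.55 and 7.23 in mutants, against 7.08, 7.05 and 6.98 in controls, with mutant 3 the closest to the controls. Abcc4 was 1.29-fold higher (0.37 ± 0.09, limma adjusted p = 0.039). The call ended without mutant 1 (adjusted p = 0.0833), mutant 2 (0.0571), control 1 (0.104), control 2 (0.125) or control 3 (0.156).

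Abcc6, a gene of liver and kidney that restrains mineral deposits, had the largest difference of subfamily c that did not pass, at 6.30, 6.25 and 6.45 in mutants against 6.50, 6.56 and 6.75 in controls. The groups did not overlap (-0.27 ± 0.08, adjusted p = 0.102), and with embryo sex as a covariate Abcc6 passed as lower (adjusted p = 0.0407). Abcc1, the broad exporter of glutathione conjugates, averaged 8.55 ± 0.05 in mutants and 8.50 ± 0.02 in controls (SD, n = 3 each), a difference of 0.05 with a 95% interval of -0.07 to 0.18. Abcc5, another cyclic nucleotide exporter, was at -0.16 (adjusted p = 0.308). Abcc2 (-0.02), Abcc3 (-0.05), Abcc10 (0.01) and Abcc12 (0.02) had adjusted p from 0.72 to 0.958. Of the 7 members listed for organic anion and nucleotide export, Abcc4 rose, 0 fell and 6 did not pass.

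The channel subunits of subfamily c and their pores differed by less than 0.1 log2 units. Abcc9 and Abcc8 are the sulfonylurea receptors of ATP-sensitive potassium channels and move no substrate themselves. Abcc9 differed by 0.07 ± 0.07 and Abcc8 by 0.07 ± 0.06 (adjusted p 0.63 and 0.612). The pore genes Kcnj8 (0.02, adjusted p = 0.908) and Kcnj11 (0.04, adjusted p = 0.888) did not pass.

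None of the 9 members of subfamily b passed. Of the 19938 genes tested 3957 had an unadjusted limma p under 0.05, and so, at a similar share, did 2 of these 9. Those 2 were Abcb6, a porphyrin transporter, and Abcb10, a transporter of the inner mitochondrial membrane needed for haemoglobin synthesis. Abcb6 read 8.05, 8.29 and 8.15 in mutants, against 7.97, 7.81 and 7.96 in controls (0.25 ± 0.08, adjusted p = 0.106). Abcb10 averaged 8.15 ± 0.07 in mutants and 7.98 ± 0.10 in controls (SD, n = 3 each, adjusted p = 0.211). Both differences were upward, while 3 of 3 measured markers of red cells fell. The mitochondrial Abcb8 was at -0.01 (adjusted p = 0.944), so 0 of the 3 mitochondrial and erythroid members passed.

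The P-glycoprotein genes Abcb1a and Abcb1b, drug pumps of barrier endothelium, were at -0.04 and 0.11 (adjusted p 0.816 and 0.552). The 95% interval of Abcb1a ran from -0.20 to 0.12 and that of Abcb1b from -0.08 to 0.29. The phosphatidylcholine flippase Abcb4 (-0.01), the bile salt pump Abcb11 (-0.07), the lysosomal peptide transporter Abcb9 (-0.07) and Abcb5 (0.07) had adjusted p from 0.56 to 0.971. Abcb5 was the only member with a second feature, which was at -0.01. Of the 5 members listed for multidrug efflux, Abcb1a, Abcb1b, Abcb5, Abcc1 and Abcg2, 0 passed, and the largest difference was 0.15.

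The ribosome-associated members differed by less than 0.1 log2 units, and 0 of 4 passed. Abce1, which splits ribosomes after translation ends, averaged 11.59 ± 0.06 in mutants and 11.54 ± 0.04 in controls (SD, n = 3 each), a difference of 0.06 with a 95% interval of -0.08 to 0.19. Abcf1, a factor of translation initiation, was at -0.00, Abcf2 at 0.06 and Abcf3 at -0.03, with adjusted p from 0.709 to 0.995.

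Genes that work with these transporters were taken from a list of 34, of which 31 were measured. Of these, 1 rose, 2 fell and 28 did not pass, while 3.84% of all genes tested rose and 3.83% fell. The median over the partner genes was 0.00. The largest change was in an ABC gene under another name. Cftr, the chloride channel of airway epithelium and by structure a member of subfamily c, read 6.11, 6.30 and 6.78 in mutants, against 8.03, 7.65 and 7.56 in controls. It was 2.55-fold lower (-1.35 ± 0.18, limma adjusted p = 0.00362) and passed with each array left out (adjusted p up to 0.0171). The epithelial markers, of which 5 of 8 fell, differed by -1.03 to -0.14, each by less than Cftr. Their part in the Cftr difference was not tested. The peptide transporter genes Tap1 (-0.01) and Tap2 (-0.09), which serve antigen presentation and belong to subfamily b by structure, had adjusted p of 0.943 and 0.567.

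Slc25a37, the mitochondrial iron importer that Abcb10 stabilises in red cell precursors, read 9.0, 9.08 and 9.02 in mutants, against 9.55, 10.28 and 9.76 in controls. It was 1.78-fold lower (-0.83 ± 0.16, limma adjusted p = 0.0196), and its call ended without mutant 3 (adjusted p = 0.0623) or control 3 (0.0602). The part of red cells, whose markers fell, in the Slc25a37 difference was not tested. Fech, the last enzyme of haem synthesis, was at -0.33 and had the smallest adjusted p among the rest of that group (0.0518).

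Lmbrd1, the lysosomal membrane partner of Abcd4 in cobalamin release, was 1.22-fold higher, at 8.32, 8.38 and 8.53 in mutants against 8.12, 8.17 and 8.10 in controls. Its limma adjusted p was 0.0444, and the call ended without mutant 2 (adjusted p = 0.0516), mutant 3 (0.0966), control 1 (0.147), control 2 (0.119) or control 3 (0.174). The cobalamin chaperone gene Mmachc was at 0.26 (adjusted p = 0.0737). Among the 8 measured sterol sensors and acceptors, 0 passed, and the smallest adjusted p was that of the lipoprotein gene Apoa1 (0.35, adjusted p = 0.0883). The peroxisome assembly gene Pex16 was at -0.33 (adjusted p = 0.0979), the xenobiotic receptor Nr1i2 at -0.08 (adjusted p = 0.577) and the kinase gene Eif2ak4 at -0.06 (adjusted p = 0.731), each with the smallest p of its group.

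**Figure D4:**
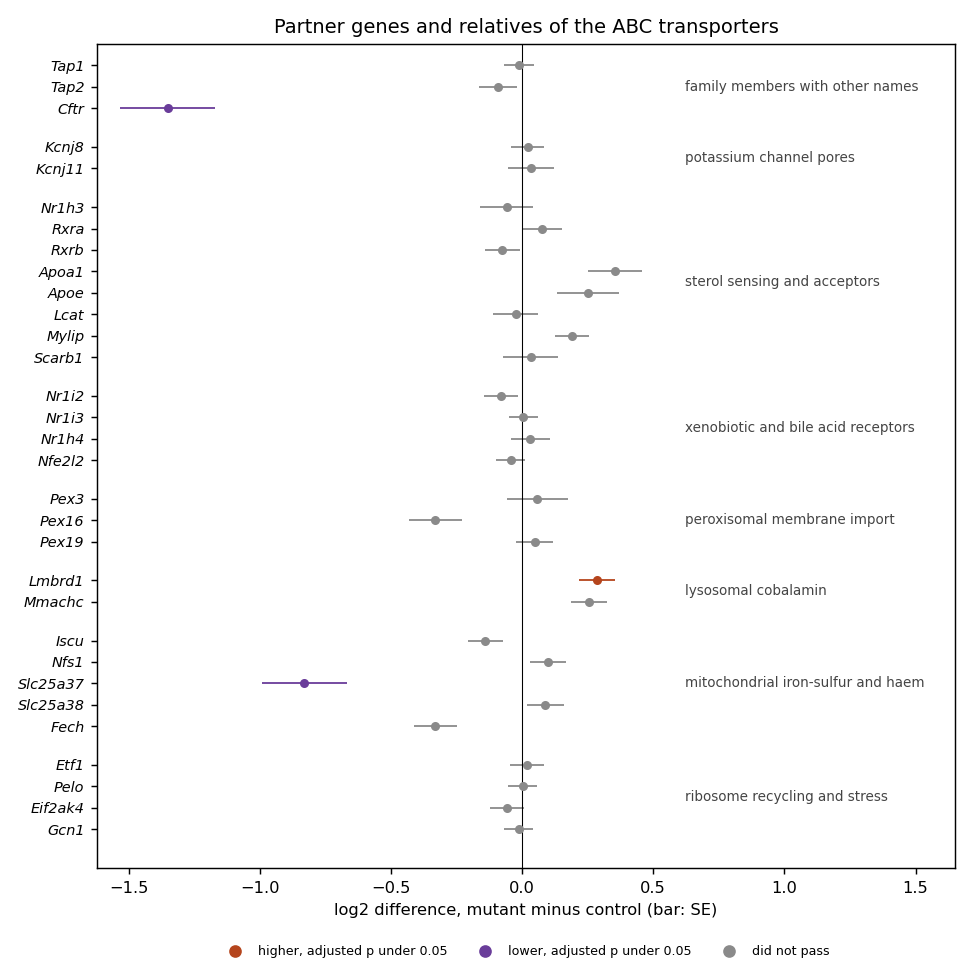
Log2 difference, mutant minus control, with its SE (n = 3 per group) for the 31 measured partner genes, grouped by the process they share with ABC transporters. Cftr (-1.35) and Slc25a37 (-0.83) passed as lower and Lmbrd1 (0.28) as higher, and the other 28 did not pass.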

How the data were processed

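The authors deposited log2 values, 1 per feature and array, made with oligo, RMA (robust multi-array average) and limma, per the submitters' processing notes. Settings and genome build: not given in the sources used here. Dim features sit near a floor on this scale, which understates their folds. Array number, 3 per genotype, limits the precision.

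Of 35556 features, 21789 have 1 annotated gene symbol, 1621 have several and 12146 are unnamed here. Each of 19938 genes was represented by its feature of highest mean and tested two-sided for genotype alone (lmFit, eBayes; limma 3.58.1, R 4.3.3; 7.96 moderated degrees of freedom). The p-values were adjusted by Benjamini-Hochberg over all genes, with a threshold of 0.05. The fit was tested on simulated data. Replicates are described as embryos. Levels were not ranked between genes; for 2 paralog pairs, the within-array difference was compared between genotypes. Named were all members past the threshold and, per subfamily, the highest mean and the largest difference that did not pass, with the others by value. Members, partner list, marker lists and tests were chosen with earlier results of these data known. Symbols, gene order and promoter sequences came from RefSeq on GRCm38.p6. The alternatives are given at the end.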

Additional observations from a re-analysis of the deposited data

How the results depend on the processing

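The count of ABC members higher in mutants was 8. It was 5 when quantile normalization was applied again or arrays were centred on their median, and 1 when a fold of 1.5 was also required. The count lower was 1, but 0 without the dimmest 1 of 3 parts of the genes, where Abca13, Abca8b and Abcg5 were not tested, 0 at a fold of 1.5, and 2 with embryo sex as a covariate, under which Abca8b (adjusted p = 0.0631) and Abca9 (0.0813) lost their calls. With single arrays left out, 3 to 6 members were higher, and the lowest count came without control 1, control 2 or control 3. Abca5, Abca6 and Abca13 passed in all 6 of those fits. The same 3 control arrays took the calls over all genes to 876, 793 and 778, against 1528 with all arrays (765 higher, 763 lower), which was 1168 higher at a threshold of 0.1, and 241 higher and 308 lower at a fold of 1.5. With the replicate number as a block, 5 members were higher, and Abca8b, Abca9 and Abcg5 lost their calls; the numbers share no stated litter or batch, same-numbered arrays correlated at -0.07, 0.05 and 0.15, and 2 of 6 arrays correlated best with their own number. The median over the members was 0.02, and -0.014 after quantile normalization, -0.00704 after centring, 0.054 without dim genes and 0.0037 to 0.0356 with single arrays left out. Partner genes higher numbered 1, but 0 under either renormalization, trend with robust moderation, the replicate block, the sex covariate or a fold of 1.5, 2 with array weights (statmod 1.5.0), 3 at a threshold of 0.1 and 0 to 3 with single arrays left out. Partner genes lower numbered 2, but 3 under either renormalization, without the dim genes, with trend and robust moderation or under the replicate block. They numbered 4 with array weights or a threshold of 0.1, and 1 to 3 with single arrays left out. Testing all features ended the call of Abca9 (adjusted p = 0.0514), and averaging the features of a gene ended 0 member calls. The alternatives were run for the members, the partner genes that passed and Map2k6; of these, no gene that passed changed sign. Map2k6 also lost its call under the replicate block. The causes of these changes were not tested. No detection calls came with the values. The floor of the signal limits what can be read at the dim end, where 11 members stayed.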
